A study of Caenorhabditis elegans with 2 samples.

Results

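The regions described here are 1248 weak ChIP-seq peaks of the transcription factor ELT-2 that fell below the authors' reproducibility threshold although each was among the 10000 strongest entries of both replicates. The experiment was chromatin immunoprecipitation with sequencing on Caenorhabditis elegans strain OP56, genotype unc-119(ed3) III with the transgene wgIs56. This transgene gives ELT-2 a C-terminal GFP-FLAG tag, and the antibody recognised GFP. Hermaphrodite late embryos were taken 4 hours after synchronization by egg bleaching. There were 2 libraries, biological replicates 1 and 2 of a single group, so no conditions were compared, and control libraries were not analysed here. Chromatin came from whole embryos, so a signal cannot be assigned to a tissue. The numbers of reads behind the peaks are unknown.

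The peaks were chosen by measured values, namely the peak signal that the authors wrote for each entry. Their ce11 list called on the pooled replicates holds 30000 entries, and their thresholded list holds 4098, which were the entries with the 4098 highest pooled signals. From the next rank down to rank 10000 the pooled list holds 5902 entries, of which 2 were mitochondrial and 651 overlapped a thresholded peak by 1 bp or more. Of the 5249 remaining, 1248 (23.8%) had a summit within 100 bp of a summit among the 10000 highest entries of each replicate. The other 4001 missed that condition, with 1710 meeting it in replicate 1 alone, 1469 in replicate 2 alone and 822 in neither. The replicate lists go on below their 10000 highest entries, to 25770 and 25986, so an entry that missed the condition may still be listed lower down. The 1248 are called the sub-threshold peaks below, and the 4001 the other entries of the same ranks. Signal, rank and presence in the replicates set the membership, so they are described without a test.

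Worm intestinal cells make ELT-2, a zinc finger protein of the GATA family that keeps the genes of digestion, absorption and defence active. It acts after a cascade of earlier GATA factors has committed the endoderm lineage. GATA factors recognise a short core word in DNA, and for ELT-2 the preferred form is TGATAA, read on either strand.

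The sequences below show 101 bases around the summit, on the plus strand of ce11, for 8 named sub-threshold peaks with a core site and for the 2 strongest without one, so that the site can be seen in its place. Some named peaks are shown without sequence, among them that of unc-89, which is stronger than the last 4 with a site. The bases were read from the RefSeq genome sequence of WBcel235. Capitals mark TGATAA or its reverse complement, and names give the gene whose promoter window holds the summit or, for ced-3, the gene with the nearest 5′ end.
egrh-1, chrX:14844934-14845034: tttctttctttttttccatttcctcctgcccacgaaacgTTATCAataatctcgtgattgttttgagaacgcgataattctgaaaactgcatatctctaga
tbc-7, chrX:5138479-5138579: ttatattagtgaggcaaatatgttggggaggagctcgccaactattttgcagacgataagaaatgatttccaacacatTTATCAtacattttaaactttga
ZK673.2, chrII:10447505-10447605: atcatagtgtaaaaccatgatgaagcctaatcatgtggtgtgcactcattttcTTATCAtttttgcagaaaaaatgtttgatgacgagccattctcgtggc
klf-3, chrII:6616309-6616409: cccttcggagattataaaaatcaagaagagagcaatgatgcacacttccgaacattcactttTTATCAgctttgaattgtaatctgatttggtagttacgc
pqm-1, chrII:11153284-11153384: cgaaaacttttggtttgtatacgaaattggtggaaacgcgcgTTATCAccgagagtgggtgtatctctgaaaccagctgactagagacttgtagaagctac
nhr-137, chrX:6665333-6665433: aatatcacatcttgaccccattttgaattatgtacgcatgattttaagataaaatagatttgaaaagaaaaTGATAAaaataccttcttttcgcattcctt
lbp-7, chrV:13879416-13879516: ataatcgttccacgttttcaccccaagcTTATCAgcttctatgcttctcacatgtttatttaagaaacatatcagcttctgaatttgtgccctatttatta
ugt-48, chrV:5548218-5548318: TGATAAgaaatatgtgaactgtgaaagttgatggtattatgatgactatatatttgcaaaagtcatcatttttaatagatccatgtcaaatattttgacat
T09B9.4, chrX:9774494-9774594: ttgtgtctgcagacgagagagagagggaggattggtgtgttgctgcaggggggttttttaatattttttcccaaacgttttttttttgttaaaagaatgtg
ced-3, chrIV:13206012-13206112: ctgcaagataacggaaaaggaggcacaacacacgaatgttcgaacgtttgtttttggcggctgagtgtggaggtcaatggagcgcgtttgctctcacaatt
Each of the first 8 windows holds 1 site, and its place runs from the left edge of the window (ugt-48) towards the right edge (tbc-7).

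The pooled signal of the sub-threshold peaks ran from 34.4 to 67.6 with a median of 56.3, in the authors' units. The highest of them, 67.601, lay just under the lowest thresholded peak at 67.624, and the lowest, at rank 9896, lay just above the signal of 34.1 at rank 10000. In replicate 1 their signals were between 21.3 and 49.4 (median 28.5), and in replicate 2 between 18.7 and 47.2 (median 25.5). In each replicate's own list most ranked well below place 4098, with median ranks of 6280 in replicate 1 and 6118 in replicate 2. Just 2 of the 1248 were among the 4098 highest entries of both replicates, 99 among those of replicate 1 alone, 141 among those of replicate 2 alone and 1006 among neither. The authors' −log10 q-value had a median of 1.43, and 738 peaks (59.1%) had a q-value of 0.05 or less.

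The rule limits the distance from the pooled to a replicate summit to 100 bp, and within that limit the median was 14 bp in replicate 1 and 14 bp in replicate 2. At 217 peaks both distances were 10 bp or less, and at 468 at least 1 distance was over 50 bp. Just inside the limit, 89 peaks had their larger distance between 91 and 100 bp, and 78 other entries lay between 101 and 110 bp. The log2 ratio of replicate 2 to replicate 1 had a median of -0.16 and an SD of 0.43, and at 30 peaks the signals differed by 2-fold or more. At rank 10000 the signal was 21.3 in replicate 1 and 18.7 in replicate 2, so equal signals are not equal ranks. Over the 1248 peaks the replicates' signals had a Spearman's rho of -0.11, a description of peaks confined to a band of pooled signal to which both replicates contribute.

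**Figure D1:**
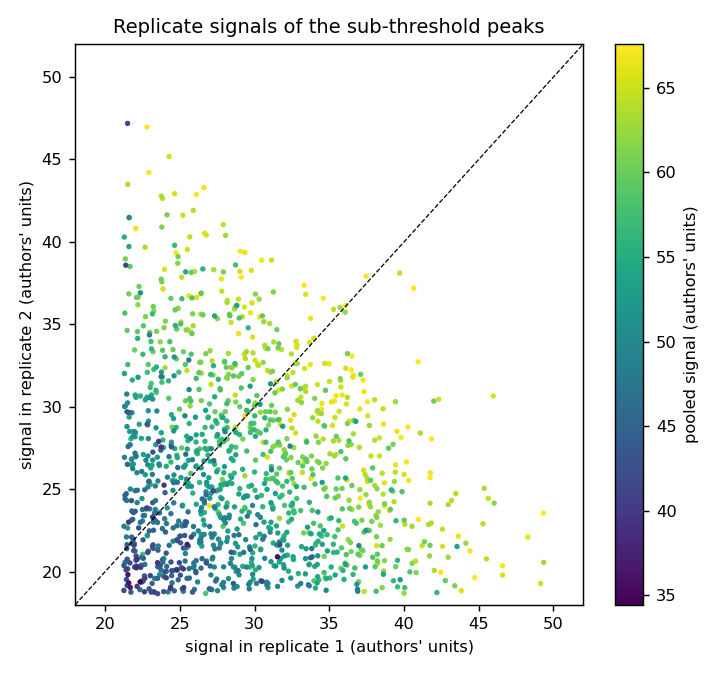
Signal in replicate 1 (x axis) against signal in replicate 2 (y axis) for the 1248 sub-threshold peaks, in the authors' units, coloured by pooled signal; the dashed line marks equal values. The points start at 21.3 and 18.7, set by the 10000-entry limit of each replicate, and few lie high on both axes.

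The strongest sub-threshold peaks lay near genes of varied function, and 3 of the 10 strongest carried the core site. The first lay on chromosome X, 14844756 to 14845211, 953 bp upstream of egrh-1, with a pooled signal of 67.6. Its signals were 36.5 in replicate 1 and 32.2 in replicate 2, at ranks 4389 and 4369, so the replicates ranked it alike. The peak of ZK673.2 (chromosome II, 10447327 to 10447782, 711 bp upstream) had 22.8 in replicate 1 and 46.97 in replicate 2. Its ranks, 8888 and 2484, lay far apart. The opposite lean was seen 1925 bp upstream of ced-3, the cell death caspase gene (chromosome IV, 13205834 to 13206289), with 44.7 in replicate 1 and 19.7 in replicate 2. Peaks with a core site also included that of tbc-7, a gene of the TBC domain family, in an intron 462 bp upstream of a 5′ end. The peak near ced-3 and the remaining 6 had none, the 6 lying 192 bp upstream of T09B9.4, 273 bp upstream of the sorting nexin gene snx-1, in the 5′ UTR of idhb-1, a gene of isocitrate dehydrogenase, 69 bp upstream of ZK546.2, 577 bp upstream of C16H3.3, and in an intron within 200 bp of a tRNA gene, where the nearest 5′ end of a protein-coding gene is that of the calponin gene cpn-4, 1774 bp away.

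The core site was more frequent at the summits of the sub-threshold peaks than beside them. TGATAA lay within 50 bp of 351 of 1248 summits (28.1%, 95% exact interval 25.6 to 30.7%) and in 129 of the equally wide windows taken 500 bp to their left (10.3%, 8.70 to 12.2%). A site was present at the summit alone in 312 peaks and in the flank alone in 90 (two-sided exact sign test, p = 8.96e-30). The reversed word AATAGT, with the same bases, was at 6.57% of summits and in 7.61% of flanks (75 peaks against 88, exact sign test p = 0.347). Peaks share 2 libraries and are not replicates of a condition, so this and the tests below describe these lists. Longer forms stood out more against the flanks. TGATAAG was at 14.9% of summits and in 1.28% of flanks, and ACTGATAA at 7.37% and in 0.801%.

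Sites clustered around the summit, with 120 sites in the 20 bp bin centred on it, or 9.62 per 100 peaks. The bins from 90 bp outward on either side held between 2.16 and 3.21 per 100 peaks. There were 237 peaks with 1 site within 50 bp, 98 with 2 and 16 with 3. Peaks with 2 or more made up 9.13%, against 19.5% of thresholded nuclear peaks and 3.52% of the other entries.

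**Figure D2:**
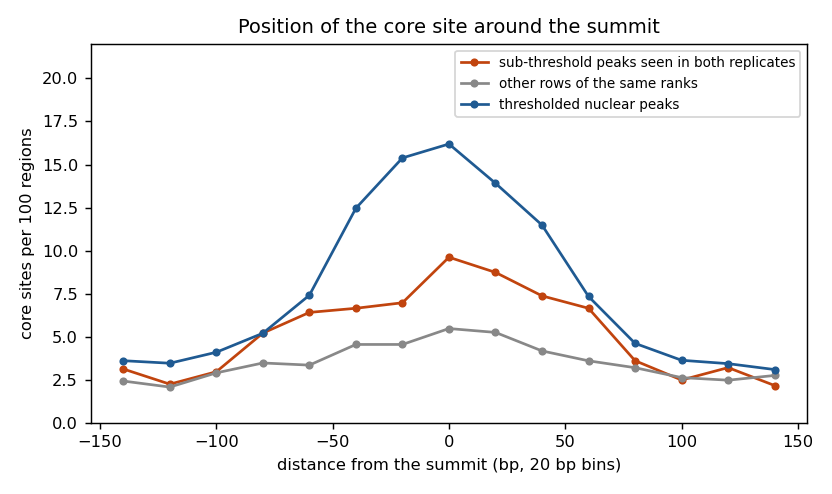
Core sites (TGATAA on either strand) per 100 regions in 20 bp bins by distance from the summit, for the sub-threshold peaks, the other entries of the same ranks and the thresholded nuclear peaks. The curve of the sub-threshold peaks reaches 9.62 at the summit and lies between the other curves there.

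In its share of core sites the set lay between the thresholded peaks and the other entries of its ranks, and shares mostly fell with pooled signal. Of 4076 thresholded nuclear peaks, 43.7% had TGATAA, so the sub-threshold peaks had it less often by 15.6 points (95% interval of the difference -18.5 to -12.6 points, two-sided Fisher's exact test adjusted over 6 differences, p = 1.14e-22). The other entries had it in 19.1%, which is 9.00 points less (6.28 to 11.8, Fisher's exact test, adjusted p = 6.43e-11). That second difference was not detected among entries of like pooled signal. Up to rank 5000, 31.3% of 549 sub-threshold peaks and 29.9% of 241 other entries had the site. From 5001 to 6000 the shares were 28.8% and 24.4%, from 6001 to 7000 21.9% and 19.4%, and from 7001 to 8000 16.2% and 18.7%. In the bin from 7001 to 8000 the site was at 11 of 68 sub-threshold summits (95% exact interval 8.36 to 27.1%) and in 11 of their flanks. The 827 other entries of that bin had it at 18.7% of summits and in 8.71% of flanks, and all 4001 had it in 9.15% of flanks. Ranks 8001 to 9000 held 11 sub-threshold peaks and ranks 9001 to 10000 held 5, too few for a share. Within 6 rank bins the difference between sub-threshold peaks and other entries was 2.53 points (-0.89 to 5.96, Mantel-Haenszel test over n = 5249 entries, p = 0.146). This comparison was added once results were known. Its interval still holds differences of up to 5.96 points, and a cause was not tested. The sub-threshold peaks had the higher ranks, with 549 in the first bin and 423 in the next, against 241 and 435 other entries. The median pooled signal was 56.3 in the sub-threshold peaks and 40.6 in the other entries.

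No step was detected at the threshold itself. Thresholded peaks had the site in 55.4% from rank 1 to 1000, 46.6% from 1001 to 2000, 39.0% from 2001 to 3000 and 35.1% from 3001 to 4098. The 549 sub-threshold peaks up to rank 5000 followed at 31.3%, which was 3.73 points lower than the last of these bins (-8.45 to 1.13 points, Fisher's exact test, unadjusted p = 0.136, also added once results were known).

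**Figure D3:**
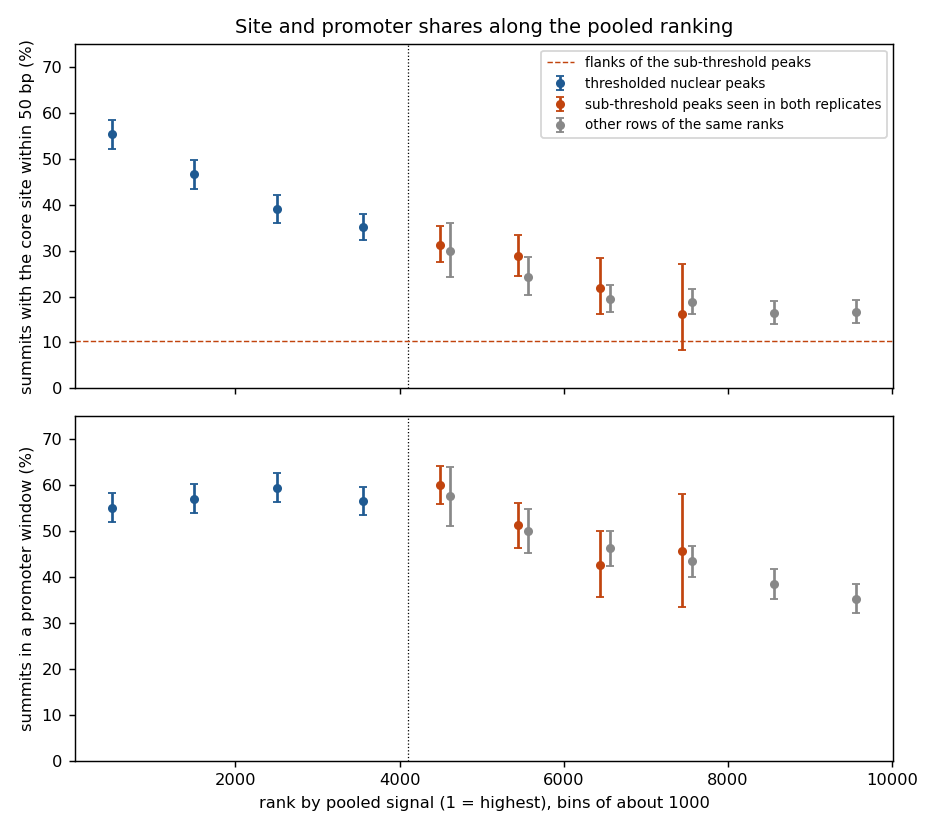
Share of summits with the core site within 50 bp (upper panel, %) and in a promoter window (lower panel, %) against rank by pooled signal, in bins of about 1000 ranks with at least 20 regions. Points are shares with 95% exact binomial intervals, the dotted line marks the threshold and the dashed line the 10.3% of flanks of the sub-threshold peaks; site shares fall from 55.4% to 16.2% with rank, and the sub-threshold peaks and the other entries overlap within each bin.

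Among the sub-threshold peaks, the share with TGATAA was 36.5% on chromosome X (77 of 211, 95% exact interval 29.99 to 43.4%) and 26.4% on the autosomes (23.8 to 29.2%), where it ranged from 23.7% on I to 34.6% on V. It was 25.8% in promoter windows (22.5 to 29.3%) and 30.8% outside them (27.1 to 34.8%). Summits in coding exons, 57 in all, had it in 49.1%. Peaks ranked higher in replicate 1 had it in 28.5% and those ranked higher in replicate 2 in 27.8%. It was 25.3% where both replicate summits lay within 10 bp and 24.4% where at least 1 lay over 50 bp away. Both shares are below the 28.1% of all sub-threshold peaks, so the peaks between these limits had it more often. These splits were not tested.

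Other words at the summits were rich in G and C. Of 1642 words of 6 letters found at 2% or more of the summits, a word and its reverse complement counting as 1, CCCCGC had the highest ratio of summits to flanks, with 46 peaks against 5. The third place went to GATAAG, which overlaps the core site by 5 letters, with 251 peaks (20.1%) against 42 (3.37%). The rest of the first 10 were CGCGCG with 42 against 7, then CGCTCC with 62 against 11, then GCGCGC with 43 against 8, then GCCCCC with 30 against 6, then GACGCA with 94 against 19, then CACGGC with 35 against 8, then CCCCCC with 39 against 9 and CCCCCG with 42 against 10. TGATAA itself was in place 54, being common in flanks too. CCCCGC was at 3.69% of sub-threshold and 3.63% of thresholded summits, and GATAAG at 34.7% of the latter. The words were chosen by their counts and have no test. The median G+C content within 50 bp of the summit was 38.6% in the sub-threshold peaks, 36.6% in the other entries and 40.6% in thresholded peaks.

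Promoter windows held 671 of the 1248 sub-threshold summits. A promoter window ran from 1000 bp before to 200 bp after a transcript's 5′ end, for every annotated transcript of protein-coding genes, and the share in one was 53.8% (51.0 to 56.6%). The median distance was 185 bp upstream, and 285 summits lay from 0 to 200 bp upstream. By annotation, 61.3% of summits were intergenic, 26.5% intronic, 4.57% coding, 4.89% in a 5′ UTR and 2.72% in a 3′ UTR. The promoter share was 57.1% in thresholded nuclear peaks, a difference of -3.30 points (-6.46 to -0.15 at 95%, adjusted p = 0.0480 by Fisher's exact test). This call did not hold when the window was widened to 2000 bp before and 500 bp after the 5′ end (adjusted p = 0.256), against the stronger part of the thresholded list (0.158) or with 8000 entries per replicate (0.781), by the same exact test. Sub-threshold peaks up to rank 5000 had 60.1%, against 56.6% in thresholded ranks 3001 to 4098. That difference was not detected by the test (3.55 points, -1.52 to 8.53, Fisher's exact test, unadjusted p = 0.186). The other entries of the same ranks had 42.5%, or 11.3 points less than the sub-threshold peaks (8.11 to 14.4, Fisher's exact test, adjusted p = 1.08e-11). Within rank bins that difference was 1.25 points (-2.68 to 5.18, Mantel-Haenszel test over n = 5249 entries, p = 0.533).

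**Figure D4:**
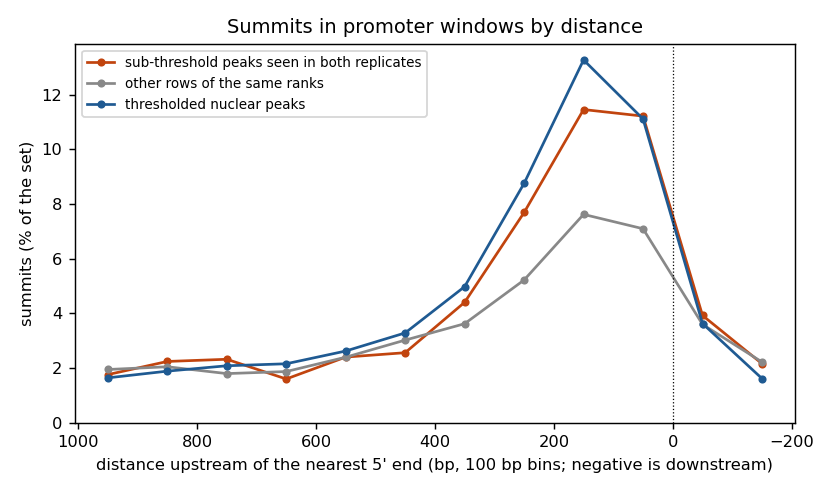
Share of each set of summits (y axis, % of the set) by distance upstream of the nearest 5′ end in a promoter window (x axis, 100 bp bins, negative values downstream). The sub-threshold peaks reach 11.5% in the bin from 100 to 200 bp upstream, and the median distance in the window was 185 bp for them and 188 bp for thresholded peaks.

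Few sub-threshold peaks lay at tRNA genes. Of 1248 summits, 24 (1.92%, 1.24 to 2.85%) were within 200 bp of one, against 5.86% of thresholded nuclear peaks (difference -3.94 points, -4.93 to -2.79, Fisher's exact test, adjusted p = 2.04e-09). Up to rank 5000 the share was 2.37%, against 4.19% in thresholded ranks 3001 to 4098 (difference -1.82 points, -3.49 to 0.12, Fisher's exact test, unadjusted p = 0.0675). The other entries of the same ranks had 1.27%, and the difference of 0.65 points (-0.09 to 1.62) did not pass the test (Fisher's exact test, adjusted p = 0.101). The core site was found at 3 of the 24.

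Chromosome X carried 211 of the sub-threshold peaks (16.9%, 14.9 to 19.1%), beside 17.7% of the nuclear base pairs. Thresholded peaks were on X in 20.5%, so the share was lower by 3.55 points (-5.90 to -1.06, Fisher's exact test, adjusted over 2 differences that were added once results were known, p = 0.0112). The other entries had 15.7% there (difference 1.19 points, -1.11 to 3.63, Fisher's exact test, adjusted p = 0.331). Per Mb, the sub-threshold peaks numbered between 9.13 on chromosome V and 14.5 on I and III, with 11.9 on X. The nearest thresholded summit lay 7428 bp away at the median, and within 1000 bp at 75 of them, where the rule had already removed entries that overlap a thresholded peak. For the other entries of the same ranks the median was 6730 bp, with 236 of 4001 within 1000 bp.

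Promoter windows of 820 protein-coding genes held a sub-threshold summit. Of these genes 47 also had a thresholded one, which leaves 773 of 19973 genes (3.87%) with a sub-threshold summit and no thresholded one. A thresholded summit was found at 2722 genes (13.6%). Of the 671 peaks in windows, 151 lay in those of more than 1 gene. Among the peaks named in the text these were those of ZK546.2 (also gldi-11), ugt-29 (srx-5), col-69 (K01A2.4) and rpl-36 with rps-14 (ndab-2). Among the 773 genes, 179 (23.2%) had a sub-threshold peak with TGATAA.

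In 19 gene lists, 12 of them grouped as gut lists, genes with a sub-threshold and no thresholded promoter summit were counted, without a test. The counts were read beside the 3.87% of all protein-coding genes. A gene with a thresholded summit cannot be counted but stays in the totals, also in that of all genes. In 6 gut lists no gene was counted, and with few genes in each this is not a result about the lists. There was none among 7 endoderm GATA genes, 18 lumen and brush border genes, 32 hydrolase and lysozyme genes, 18 metal homeostasis genes, 6 yolk genes and 12 gut granule genes. In the same lists thresholded summits were found at 1, 10, 11, 8, 0 and 5 genes. Over the 12 gut lists together, 31 of 631 entries (4.91%) had one, against 147 (23.3%) with a thresholded summit. Of these entries 269 were nuclear receptor genes and 185 detoxification genes, with 14 and 8 of the 31. Both lists take whole families by name, so this total does not describe gut genes alone. 

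Among the genes fixed by name, none had a sub-threshold summit in its window. The distance from a 5′ end to the nearest such summit was 13039 bp for end-3 and 16528 bp for end-1, which specify the endoderm, 11753 bp for med-2 and 23221 bp for med-1, which act before them, 45636 bp for elt-2 itself and 39923 bp for elt-4. For the intestinal hydrolase genes ges-1, pho-1 and asp-1 it was 125403, 47584 and 68603 bp, and for the saposin-like gene spp-1 it was 51764 bp. The metallothionein gene mtl-1 (25049 bp) and the yolk protein gene vit-2 (37487 bp) also had none near. The pooled list held no entry at all, weak ones included, in the windows of these genes except asp-1, where the better of 2 entries had rank 7176 and a signal of 43.1. The genes elt-7 and act-5, whose windows held thresholded peaks, were 48806 and 16541 bp from a sub-threshold summit.

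Regulators of stress and metabolism had the highest share of the lists, with 4 of 20 genes (20%), beside 3.87% of all protein-coding genes. This count is small and was not tested, and the lists were chosen with earlier results of these data known. The peak of klf-3, a Krüppel-like factor gene of fat metabolism, lay 519 bp upstream (chromosome II, 6616131 to 6616586). Its signals were 42.5 in replicate 1 and 19.96 in replicate 2, with a pooled signal of 67.0 and 1 core site, so replicate 1 was well above replicate 2. The peak of pqm-1, a zinc finger factor gene linked to insulin signalling, lay 739 bp upstream (chromosome II, 11153106 to 11153561). It had 30.2 in replicate 1 and 32.6 in replicate 2, a pooled signal of 65.5 and 1 core site, and a thresholded summit lay 667 bp away. The peak in the 5′ UTR of atfs-1, the regulator of the mitochondrial unfolded protein response, had 46.0 and 30.7 in replicates 1 and 2 and no core site. That of mxl-3, a regulator of lysosomal lipases, had 27.9 and 29.4 and none either.

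Lipid metabolism had 2 of 27 genes (7.41%), beside 3.87% of all protein-coding genes. The peak 86 bp upstream of the lipid-binding protein gene lbp-7 (chromosome V, 13879238 to 13879693) had 31.0 in replicate 1 and 35.1 in replicate 2, and carried a core site. That of the fatty acid elongase gene elo-1, 147 bp upstream, had 26.9 and 29.4 and carried none. In replicates 1 and 2 the ranks were 5549 and 3870 for lbp-7 and 6844 and 4977 for elo-1. Vacuolar ATPase genes had 2 of 20 (10%), neither with a core site. These were vha-19 with 27.7 in each replicate, at ranks 6557 and 5424, and vha-14 with 28.5 and 25.3. Immunity genes had 1 of 17 (5.88%), the C-type lectin gene clec-85, with 27.1 and 19.8. Such small counts are not a result about these lists.

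Genes of detoxification (cyp, ugt and gst) had 8 of 185 genes (4.32%), 3 of them with a core site, close to the background of 3.87%. The strongest lay 206 bp upstream of ugt-48, a UDP-glycosyltransferase gene (chromosome V, 5548040 to 5548495), with 35.3 in replicate 1, 27.03 in replicate 2 and a core site at the edge of its window. Those of ugt-32 (30.6 and 35.2), the cytochrome P450 gene cyp-13A12 (25.7 and 30.1) and ugt-29 (24.8 and 34.7) had none. The summit of ugt-29 also lay in the promoter window of srx-5. Nuclear hormone receptor genes had 14 of 269 (5.204%), 6 with a core site. The peak of nhr-137 lay in an intron 45 bp downstream of a 5′ end, with 26.7 in replicate 1 and 40.5 in replicate 2, and carried the site. So did that of nhr-109 (24.0 and 35.2), whereas those of nhr-228 (28.5 and 32.4) and nhr-17 (37.2 and 23.1) did not.

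**Figure D5:**
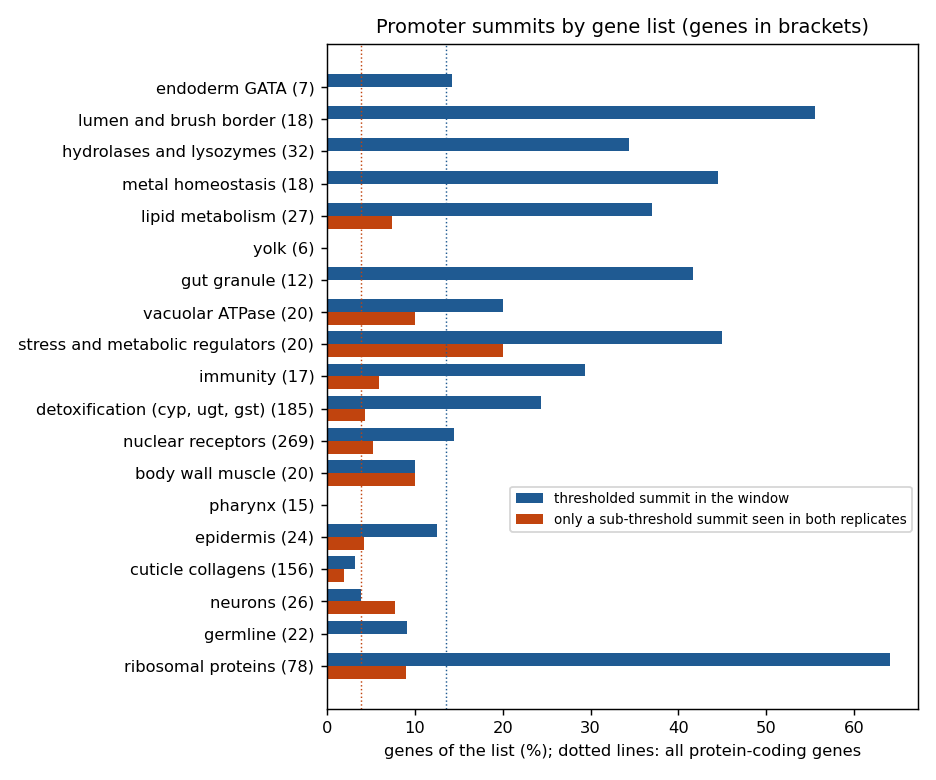
Share of the genes of each list (x axis, %) with a thresholded summit in the promoter window (blue) and with a sub-threshold summit but no thresholded one (orange); numbers of genes are in brackets and dotted lines give all protein-coding genes, 13.6% and 3.87%. The endoderm, lumen, hydrolase, metal, yolk and granule lists have no orange bar.

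Markers of other tissues were also present among the genes with a sub-threshold summit. Body wall muscle had 2 of 20 genes, unc-89, whose product organises the sarcomere (28.9 in replicate 1 and 34.4 in replicate 2, with a core site), and unc-112, the kindlin gene of muscle attachments (38.03 and 30.4, with none). Neurons had 2 of 26, the synaptobrevin gene snb-1 (23.8 and 42.8, with none) and unc-30, a homeodomain factor gene of GABA neurons (31.6 and 27.9, with a site). Epidermis had 1 of 24, the GATA factor gene elt-3, whose peak on chromosome X, 13934196 to 13934651, held 2 core sites and had 23.8 and 31.5. Cuticle collagens had 3 of 156 (1.92%), led by col-69 with 1 site and col-65 with 3. None was found at 15 pharyngeal and 22 germline genes. Over these 6 lists the share was 8 of 263 (3.04%), beside 3.87% of all protein-coding genes. A core site was present for 5 of the 8 genes and for 12 of the 31 entries of the gut lists. These counts are small and their difference was not tested.

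Ribosomal protein genes had 7 of 78 (8.97%), none with TGATAA at its sub-threshold summit, beside 50 with a thresholded one. The strongest were those of rpl-41.2 (32.5 in replicate 1 and 33.2 in replicate 2), of rpl-36 and rps-14, which share a peak on chromosome III, 7179617 to 7180072 (36.6 and 28.4), and of rps-8 (23.8 and 37.6). The 8.97% lay above the 3.87% of all protein-coding genes, but it rests on few genes and was not tested. The 50 genes with a thresholded summit could not be counted but stay in the total. For the other lists, a share near 3.87% is not a result about the list.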

How the data were processed

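Peak lists in narrowPeak format, 1 per replicate, 1 for the pooled replicates and 1 after thresholding by the irreproducible discovery rate, were deposited for ce11 and ce10, per the deposited file listing. The peak signal is the authors' own value whose scale no source used here states, and the −log10 q-value is also as deposited. Aligner, peak caller and threshold were not given in the sources used here. Lists were sorted by signal. The Ensembl release 115 annotation and RefSeq sequence of WBcel235, the same assembly as ce11, were used, and 0 ce11 peaks ran past a chromosome end. Words were searched on both strands within 50 bp of the summit.

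Sets of peaks were compared by Fisher's exact tests with Benjamini-Hochberg adjustment over 6 differences, with Newcombe intervals for differences and exact binomial (Clopper-Pearson) intervals for shares at 95%, all for counting error only (Python 3.11.15, scipy 1.17.1, statsmodels 0.14.6). Site search and membership rule were tested on simulated data. The peaks and gene lists were chosen with earlier results of these data known. Named are the 10 strongest sub-threshold peaks, up to 4 genes per gut or ribosomal list and up to 2 per list of another tissue by signal, and 14 genes fixed by name. Alternatives changed the replicate conditions, windows, word and comparison sets. Coordinates are 1-based. Sequences were not printed for named peaks on chromosome I or with a UTR in the window.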

Additional observations from a re-analysis of the deposited data

How the results depend on the processing

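The excess of TGATAA at sub-threshold summits over their own flanks lay between 12.02 and 20.1 points and passed the exact sign test under all 11 alternatives. Of these, the demand for over 500 bp to every thresholded summit left the same peaks, so it could not change any result. The differences from thresholded peaks and from the other entries kept their call under most alternatives. Against thresholded peaks, the promoter difference of -3.30 points did not pass with 8000 entries per replicate (-0.56), a window widened to 2000 bp before and 500 bp after the 5′ end (-1.68) or the stronger part of the thresholded list (-2.52), and the cause was not tested. The tRNA difference from the other entries, 0.65 points, passed with replicate summits within 50 bp (1.03, Fisher's exact test, adjusted p = 0.0325). Comparisons at like rank were added once results were known. Within rank bins the differences from the other entries were 2.53 points for TGATAA, 1.25 for promoters and -0.20 for tRNA genes, and up to rank 5000 alone they were 1.45 for TGATAA and 2.43 for promoters, none past the threshold. Across the threshold, between thresholded ranks 3001 to 4098 and sub-threshold peaks up to rank 5000, they were -3.73 for TGATAA, 3.55 for promoters and -1.82 for tRNA genes, again none past it (adjusted p = 0.372 for each, by the exact test). The comparison within rank bins used all 5249 entries, and those up to rank 5000 and across the threshold used fewer. The cause of the lost calls was not tested.

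The number of peaks moved with the replicate conditions: 780 with summits within 50 bp, 768 with 8000 entries per replicate, and between 2717 and 2958 when 1 replicate was left out. The 773 genes became 477, 501 and between 1434 and 1509. The same rule on the ce10 lists gave 1237 peaks. Requiring over 500 bp to every thresholded summit changed nothing, since the closest lay 576 bp away. No paired analysis was possible because there is 1 group. Depth is unknown, so no limit of detection can be given for peaks not listed.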

Other observations

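Genes with a sub-threshold and no thresholded promoter summit were spread over many families, and 3.87% of all protein-coding genes had one. Among named families with at least 20 genes, the highest counts were 14 of 269 nhr genes, 7 of 170 fbxa genes (F-box proteins, 4.12%), 6 of 67 ugt genes (8.96%), 5 of 240 clec genes (C-type lectins, 2.08%) and 5 of 47 lin genes (10.6%), which share a name and not a function. The shares of nhr and fbxa are near that of all genes and that of clec is below it. For dnj, the family of DnaJ-type chaperones, 4 of 29 genes had such a summit, beside 10 with a thresholded one. For chil, a family of chitinase-like proteins, 3 of 26 had one, beside 1 with a thresholded summit. The families were chosen once results were known and were not tested.

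Of the sub-threshold peaks, 5 pairs of neighbours overlapped each other, so a few regions are counted as 2 peaks. No replicate entry served as the match of more than 1 peak. Near the limit on replicate rank, 230 peaks had their lower rank from 9001 to 10000.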
